A study of Mus musculus with 6 samples.

Results

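The miR-30 family was described in sorted mouse osteoclasts, in 3 samples of mice in which osteoclast miRNAs had been knocked down (OCmiR-KD, called KD) and 3 of control mice whose osteoclast miRNAs were intact (OCmiR-Intact, called Intact). The members are the guide-strand assays mmu-miR-30a, mmu-miR-30c and mmu-miR-30d, written below without the prefix for mouse. These are the 3 miR-30 assays with values, of 95 measured assays and 709 assays on the array. They were chosen by name and shared seed and not by their values. Osteoclasts, myeloid cells that resorb bone, had been isolated from bone marrow by magnetic sorting for OSCAR and CTR. All 6 samples share this source, tissue and sorting. The sources used here do not give the allele, promoter or agent behind the knockdown, nor the age and strain of the mice. The design text speaks of RNA pooled from 3 mice of each group, while each group has 3 samples. It is not stated whether a sample is 1 mouse or a repeat reading of the pool. The p-values therefore rest on the scatter of these samples, which may be technical. In KD samples that scatter is also bound by a fixed mean in most assays, as described below. OSCAR and CTR are messenger RNAs and proteins that a miRNA array does not carry, so the sort could not be checked against them.

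miRNAs are short RNAs that guide Argonaute proteins to messenger RNAs, mainly through pairing of the seed near their 5′ end, and lower the output of those messages. miR-30 miRNAs share 1 seed and so have overlapping targets, and they are expressed in many tissues. In bone they are known as restraints on osteoblast differentiation, through the transcription factors Runx2 and Smad1. miR-30a is also known for repressing Beclin 1, a factor that starts autophagy.

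The 5 guide-strand assays of the family are shown because they differ in a few bases downstream of the seed, yet only 3 of them had values. Sequences are those of the deposited table, 5′ to 3′, with the seed (bases 2 to 8) in capitals.
miR-30a: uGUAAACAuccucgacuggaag
miR-30c: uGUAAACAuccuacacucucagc
miR-30d: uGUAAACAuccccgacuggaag
miR-30b: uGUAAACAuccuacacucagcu
miR-30e: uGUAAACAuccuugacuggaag

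With positions counted from 1 at the 5′ end, miR-30d differs from miR-30a by U12C alone, and miR-30e, which was Null, differs from miR-30a by C13U alone. miR-30c and miR-30a are identical over their first 12 bases and have 5 mismatches over the 22 bases they share in length. miR-30c and the Null miR-30b are identical over 18 bases. Values of miR-30a and miR-30d may therefore include a relative, since 2 assays lie within 2 mismatches of each. Counted without gaps, 0 lie that close to miR-30c, but it shares its first 18 bases with miR-30b. Its values may thus include a relative too, and reading of relatives was not tested. The RefSeq table of GRCm38.p6 places miR-30a in Mir30a at chr1:23272274-23272295 on the plus strand. It places miR-30c in 2 genes, in Mir30c-2 at chr1:23291714-23291736 on the plus strand and in Mir30c-1 at chr4:120769584-120769606 on the minus strand. An assay of mature miR-30c cannot tell these genes apart. No gene lies wholly between Mir30c-1 and Mir30e in that table, and Mir30e holds miR-30e at chr4:120772660-120772681 on the minus strand. Mir30e lies within the span of Mir30f. Mir30c-1 and Mir30e both lie within the span of Nfyc, a subunit gene of the transcription factor NF-Y. Mir30d and Mir30b lie next to each other on chromosome 15.

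Levels are minus delta Ct. The threshold cycle (Ct) is the PCR cycle at which fluorescence crosses a set line, and delta Ct is that of the assay minus that of U6, a small nuclear RNA, in the same sample and plate. A level is thus in log2 units relative to U6, on the assumption of doubling per cycle. Since assays have their own primers, levels of 2 miRNAs compare readings and not amounts. A limit holds for every KD value below. On the linear scale relative to U6 of plate 1, the 3 KD values average 1 to within 0.001 in 88 of the 95 measured assays, and this was so in 0 of 95 for Intact samples. The linear means of miR-30a, miR-30c and miR-30d were 1.00, 1.00 and 1.00 in KD samples, against 29.7, 10.9 and 17.9 in Intact samples. The sources used here do not say which step set the KD means. A lower KD level below describes the deposited values and cannot be read as a loss of the miRNA. The 3 KD values of an assay with a fixed mean are not independent of each other, but the test used below (limma) treats them so. Its p-values, intervals and calls are therefore descriptive and are no valid test of the knockdown.

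All 3 members were lower in KD than in Intact osteoclasts relative to U6, with mean differences of -6.36 log2 units for miR-30a, -4.36 for miR-30d and -3.42 for miR-30c. For each member every KD sample lay below every Intact sample. Most measured assays with a fixed KD mean were lower as well, and the members differed from each other in how the single samples scattered.

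miR-30a had the widest range. The level of mmu-miR-30a was 1.48, -3.84 and -2.75 in KD samples 1, 2 and 3, against 4.30, 5.78 and 3.88 in Intact samples 1, 2 and 3. KD 1 was high and above U6, KD 2 and KD 3 were far below U6, and Intact 2 was the highest of all 6. The same wells read Ct values of 29.6, 34.4 and 32.1 cycles in KD samples and 25.0, 23.8 and 26.5 cycles in Intact samples. On the linear scale miR-30a was 2.78, 0.0697 and 0.149 times U6 in KD samples, so KD 1 held 92.7% of the sum that fixes the KD mean. The mean level was -1.71 ± 2.81 in KD and 4.65 ± 1.00 in Intact osteoclasts (SD, n = 3 each). The difference of -6.36 log2 units (SE 1.33, 95% interval -9.44 to -3.27) passed the threshold (limma over all 95 assays, adjusted p = 0.0025), with 3 of 3 KD samples below every Intact sample. Without KD 1 the difference was -7.95 and without KD 2 it was -5.29, each a change of the fold by more than 1.5 times. The authors' deposited table gives 81.9 for Intact over KD. The ratio of the linear means, which does not weight the 2 low KD samples as a mean of logs does, was 29.7 for Intact over KD, a log2 difference of -4.89.

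miR-30c, the member with the smallest difference, had the least spread of the members in each group. The level of mmu-miR-30c was -0.28, -0.41 and 0.51 in KD samples 1, 2 and 3, against 2.66, 3.91 and 3.51 in Intact samples 1, 2 and 3. All KD samples lay within 1 log2 unit of U6 and of each other (range 0.923), and Intact 1 was the low Intact sample. The Ct values were 31.4, 31.0 and 28.8 cycles in KD samples, where U6 of the same plate read 31.1, 30.6 and 29.3 cycles. The Intact Ct values were 26.6, 25.7 and 26.8 cycles beside U6 at 29.3, 29.6 and 30.3 cycles. The miR-30c reading thus stayed close to that of U6 in each KD sample and came ahead of it by several cycles in each Intact sample. Mean levels were -0.06 ± 0.50 in KD and 3.36 ± 0.64 in Intact osteoclasts (SD, n = 3 each), a difference of -3.42 (SE 0.56, 95% interval -4.72 to -2.12, limma adjusted p = 0.00064). The authors' deposited table gives 10.7 for Intact over KD, and the ratio of linear means was 10.9. Leaving out any 1 sample left the difference between -3.77 and -3.14.

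miR-30d, which differs from miR-30a in 1 base, shared its order of samples within the KD group but not within the Intact group. The level of mmu-miR-30d was 1.18, -1.50 and -1.40 in KD samples 1, 2 and 3, against 4.65, 2.11 and 4.59 in Intact samples 1, 2 and 3. KD 1 was again the high KD sample, and Intact 2, where miR-30a was highest, was the low Intact sample. KD 1 and Intact 2 were only 0.932 log2 units apart, the smallest gap between the groups among the members. Ct values were 29.9, 32.1 and 30.7 cycles in KD samples, against 24.6, 27.5 and 25.8 cycles in Intact samples. Mean levels were -0.57 ± 1.52 in KD and 3.79 ± 1.45 in Intact osteoclasts (SD, n = 3 each), a difference of -4.36 (SE 0.98, 95% interval -6.65 to -2.06, limma adjusted p = 0.0036). It was -5.23 without KD 1 and -5.19 without Intact 2. The call held without any 1 sample (largest limma adjusted p = 0.027), which does not test the fixed KD mean. The authors' deposited table gives 20.5 for Intact over KD, and the ratio of linear means was 17.9.

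**Figure D1:**
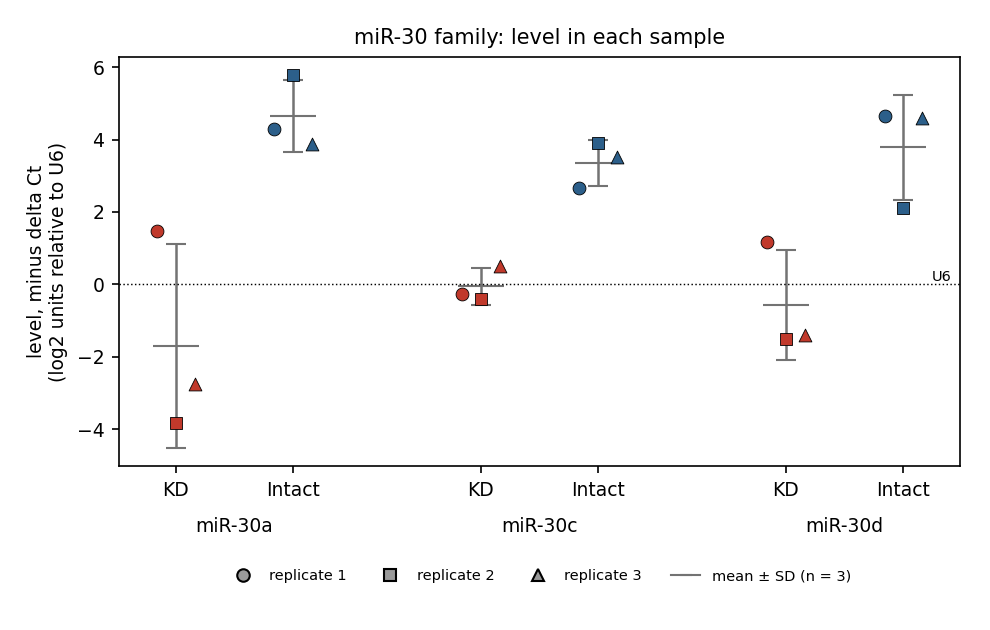
Level of each miR-30 member (minus delta Ct, log2 units relative to U6, dotted line) in the KD and Intact samples, with points for single samples, a marker for each replicate number, and bars for the mean and SD of 3. No KD point reaches an Intact point of the same member, and the KD points of miR-30a spread from -3.84 to 1.48 while those of miR-30c stay between -0.41 and 0.51.

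Set against the array, the family did not stand apart in direction. All 3 members were among the assays called lower in KD, where 80 of 95 assays (84.2%) were called lower and 0 higher. Every one of these 80 is among the 88 assays with a KD linear mean of 1. Of the 7 others, limma called 0 (0 also at an unadjusted p under 0.05), and their differences lay between -0.33 and 0.05. The share of 84.2% is therefore one of the assays with a fixed KD mean and no measure of a general fall. The groups did not overlap for 3 of 3 members, with every KD sample below every Intact sample in 78 of 95 assays (82.1%). The exact two-sided permutation test over samples gave p = 0.1 for each member, the smallest that 3 against 3 allows. The median difference was -4.36 over the 3 members and -4.54 over all 95 assays. Ordered from the largest fall, miR-30a ranked 20, miR-30d 52 and miR-30c 66 of 95. By the ratio of linear means, in which the KD side is fixed for all 3, the ranks were 36, 53 and 67.

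**Figure D2:**
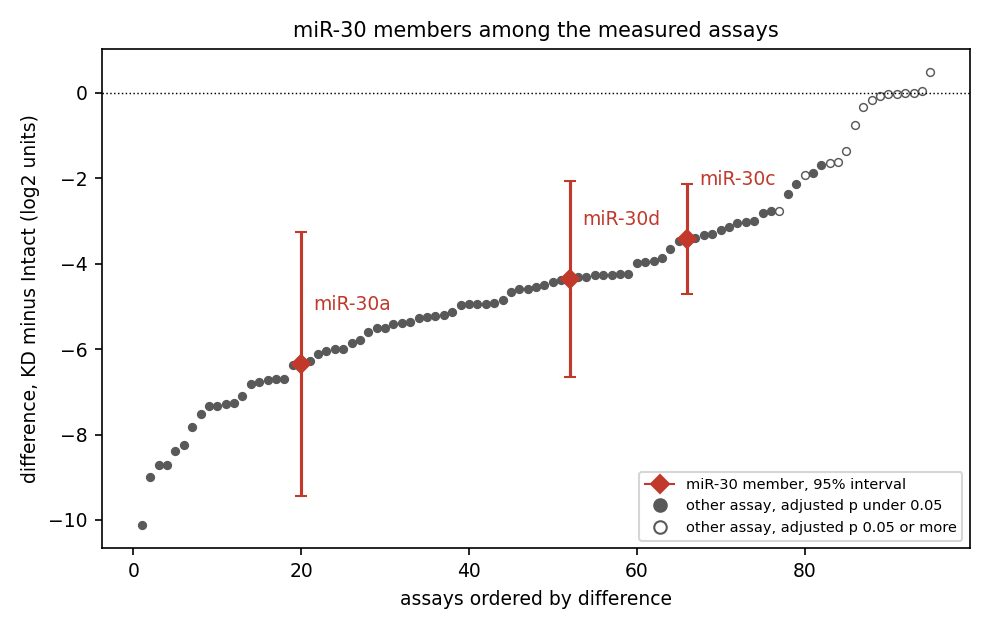
Difference in level, KD minus Intact (log2 units relative to U6), for the 95 measured assays in order, with the 95% limma intervals of the miR-30 members as red diamonds and bars. miR-30a (-6.36) lies in the lower part of the order, and miR-30d (-4.36) and miR-30c (-3.42) lie nearer its middle, with intervals that overlap each other.

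The direction holds relative to U6. When each sample was centred on the mean Ct of its 95 measured miRNAs, the median difference of all assays was -0.06. The members' differences from that mean change were then -1.87 for miR-30a, 1.06 for miR-30c and 0.12 for miR-30d, and 0 of the 3 passed (limma adjusted p = 0.32, 0.19 and 0.93), where 20% of assays were called lower and 20% higher. After quantile normalization the differences were -1.99, 0.79 and -0.10, again with 0 of 3 called (limma adjusted p = 0.55, 0.39 and 0.98), where 4.21% of assays were called lower and 8.42% higher. The sign for miR-30c was thus opposite to that relative to U6 in both settings, and for miR-30d in the first. The 95% intervals of all 3 members held 0 in both settings, so no direction is shown there. Centred, they were -0.26 to 2.38 for miR-30c and -2.07 to 2.32 for miR-30d. Both settings subtract the change that most assays share, and that change includes the fixed KD means. Neither setting undoes those means, so the remaining differences cannot be read as knockdown effects freed of a shared change.

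U6 cancels from the ratio of 2 members within a sample, since all 3 assays were on plate 1. The fixed means do not cancel: each member's KD linear mean is 1 by itself, so the KD ratios and the KD order of readings show only how each assay's values scatter around that mean. The order of the readings was not the same in every sample. miR-30a was highest in KD 1 and Intact 2, miR-30c in KD 2 and KD 3, and miR-30d in Intact 1 and Intact 3. The log2 ratio of miR-30a over miR-30c was 1.76, -3.43 and -3.26 in KD samples 1, 2 and 3, against 1.64, 1.86 and 0.37 in Intact samples 1, 2 and 3. KD 1 had a ratio like those of the Intact samples, while in KD 2 and KD 3 miR-30c read about 10-fold above miR-30a (10.8 and 9.57). miR-30a over miR-30d was 0.30, -2.34 and -1.35 in KD samples, against -0.35, 3.66 and -0.71 in Intact samples, where Intact 2 stood alone. miR-30d over miR-30c was 1.46, -1.09 and -1.91 in KD samples, against 1.99, -1.80 and 1.08 in Intact samples. The groups overlapped in all 3 ratios.

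The 3 pairs were compared between the groups. With 3 samples against 3 the exact test cannot give a p below 0.1, so no pair could pass a threshold of 0.05, and the p-values do not bear on whether the ratios differ. The ratio of miR-30a over miR-30c averaged -1.64 ± 2.95 in KD and 1.29 ± 0.81 in Intact samples (SD, n = 3 each), a difference of -2.94 (exact two-sided permutation p = 0.3, adjusted over the 3 pairs 0.6). The interval from limma's fit of all levels relative to miR-30c was -5.10 to -0.77 (SE 1.07). Its SE draws on the spread of the other assays, all read against the same miR-30c values. It is therefore narrower than this pair's own SD of 2.95 in KD samples would give. That the interval does not hold 0 is no result about the pair, and it too rests on the fixed KD means. Without KD 1 the difference was -4.64, and without KD 2 it was -2.04. miR-30a over miR-30d differed by -1.999 (95% interval -4.88 to 0.89, exact permutation p = 0.4, adjusted 0.6), and by -0.60 without Intact 2. miR-30d over miR-30c differed by -0.94 (95% interval -3.02 to 1.15, exact permutation p = 0.7, adjusted 0.7), and by -2.05 without Intact 2 and -0.15 without Intact 1. The intervals of the last 2 pairs, from fits of the same kind, are wide enough to hold differences of several log2 units.

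**Figure D3:**
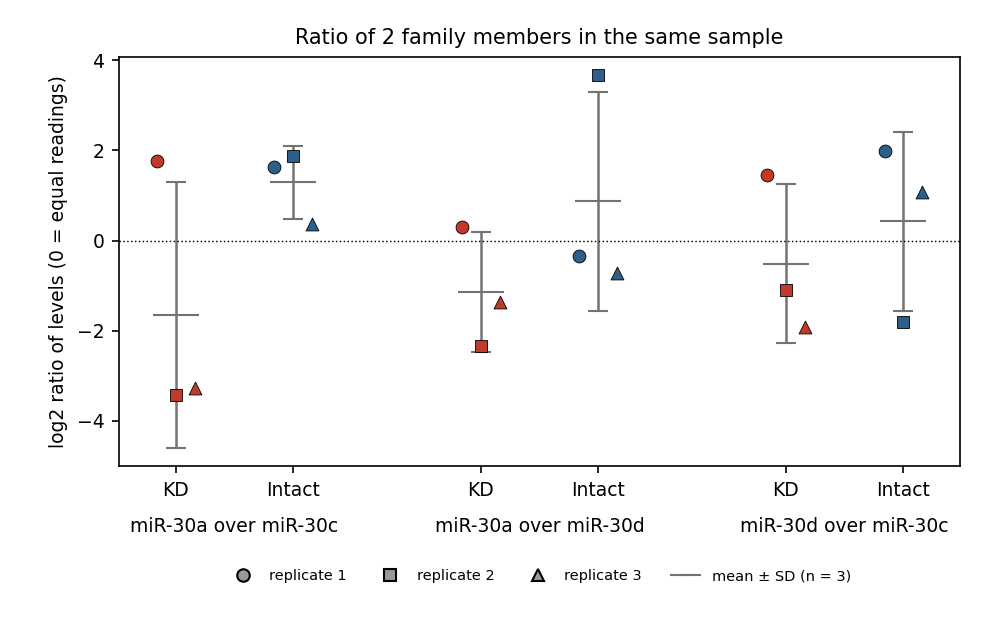
Log2 ratio of 2 miR-30 members read in the same sample, for each pair of members in KD and Intact samples, with a marker for each replicate number and bars for the mean and SD of 3. The KD and Intact points overlap for every pair, and KD 1 has the highest ratio of the KD group in each pair.

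The members differed in how far replicates lay apart. The SD over KD samples was 2.81 for miR-30a, 1.52 for miR-30d and 0.50 for miR-30c, ranking 4, 20 and 69 of 95 from the largest, with a median SD of 0.80 over all assays. Over Intact samples the SDs were 1.00, 1.45 and 0.64, ranking 23, 10 and 33, with a median of 0.48. KD samples of miR-30a ranged over 39.9-fold, those of miR-30d over 6.40-fold and those of miR-30c over 1.90-fold. The distance of KD 1 above the next KD sample was 4.22 log2 units for miR-30a, the largest of the 95 assays, and 2.58 for miR-30d, the third largest. With miR-293 these were the 3 assays in which KD 1 lay more than 2 log2 units above both other KD samples. KD 1 was not high in general. It was the highest KD sample in 28 of 95 assays, KD 2 in 27 and KD 3 in 40. This pattern was picked out after the values had been seen and is a description. Within KD 1, miR-30a ranked 7 and miR-30d 8 of 95 by level, whereas in KD 2 they ranked 93 and 82 and in KD 3 they ranked 89 and 81. miR-30c ranked 57, 55 and 31 in the same samples. These KD ranks, like the KD SDs and gaps above, show scatter around the fixed KD mean. They are no order of amounts. In Intact samples 1, 2 and 3 the ranks were 54, 24 and 55 for miR-30a, 45, 77 and 43 for miR-30d and 77, 52 and 66 for miR-30c. The drop of miR-30d in Intact 2, at 2.48 log2 units below the lower of the other Intact samples, was also the third largest of the 95.

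**Figure D4:**
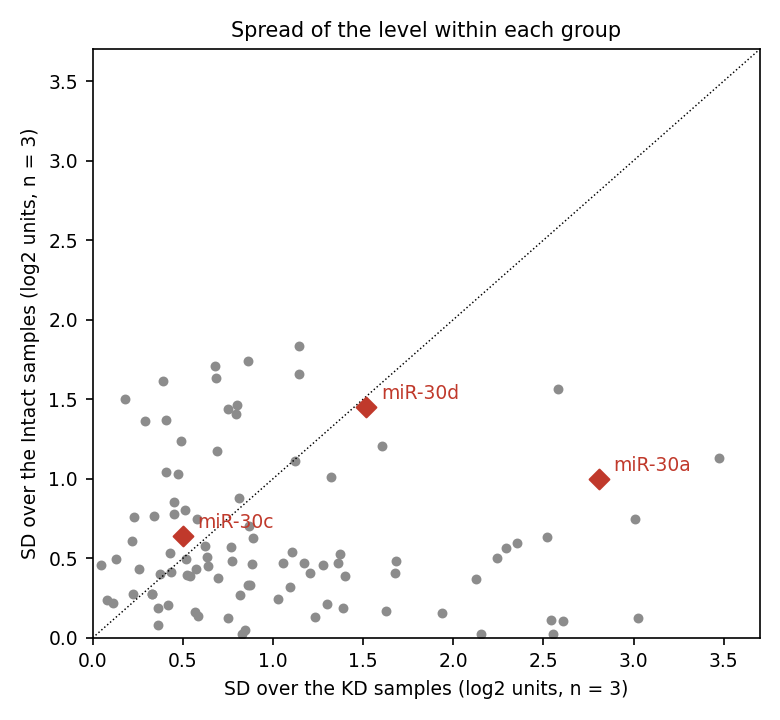
SD of the level over the 3 KD samples (x axis) and over the 3 Intact samples (y axis), both in log2 units, for the 95 measured assays, with the miR-30 members as red diamonds and a dotted line of equal spread. miR-30a lies far to the right (2.81 against 1.00) and miR-30d close to the line (1.52 against 1.45). miR-30c (0.50 against 0.64) lies below the median SD of 0.80 in KD but above that of 0.48 in Intact samples.

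The rest of the family had no values. Of 10 miR-30 assays on the array, 5 guide and 5 star strands, the 3 above were measured and 7 were Null in all 6 samples. The Null guides were miR-30b and miR-30e, and the Null star strands, which come from the other arm of each hairpin, were miR-30a*, miR-30b*, miR-30c-1*, miR-30c-2* and miR-30e*. By seed, 6 assays on the array carry GUAAACA at bases 2 to 8. The only one from outside the family, miR-384-5p from Mir384 on chromosome X, was Null too. Null and measured members shared gene neighbourhoods. Mir30b, next to Mir30d on chromosome 15, has a Null guide beside a measured one. Mir30a on chromosome 1 has a measured guide, and Mir30e on chromosome 4 has a Null guide. Mir30c-2 lies on the chromosome of Mir30a and Mir30c-1 near Mir30e. The miR-30c reading may come from Mir30c-1, Mir30c-2 or both. Because 0 of the 709 assays were Null in only some samples, a Null gives no information on the difference between groups. The sources used here do not say how a well was set to Null, so no upper limit can be set on these 7.

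Other measured assays whose pattern was most like each member were ranked by the root mean square difference of level over the 6 samples, after each assay's own mean was subtracted. Nearest to miR-30c were miR-1981 (0.45 log2 units), miR-92a (0.48) and miR-222 (0.51), which differed between the groups by -3.41, -3.66 and -3.02. Nearest to miR-30d were miR-98 (0.85), miR-192 (0.99) and miR-423-3p (1.02), which differed between the groups by -3.21, -4.38 and -4.54. miR-98, a let-7 relative, had levels of 0.65, -0.66 and -0.32 in KD samples, against 4.68, 1.28 and 3.35 in Intact samples. It shared with miR-30d both the high KD 1 and the low Intact 2. Nearest to miR-30a were miR-122 (1.23), let-7b (1.34) and let-7c (1.51), so no assay followed it closely. Their differences between the groups were -7.27, -6.70 and -7.29. These 9 likenesses rest on values that share the same U6 readings and the same fixed KD means. The measure takes in the size of the difference between groups, which was -6.36 for miR-30a, -4.36 for miR-30d and -3.42 for miR-30c. The ranks are thus not separate from those differences. The members were not each other's nearest. Among the 94 other assays, miR-30d was 21st and miR-30c 56th in likeness to miR-30a, miR-30d was 58th and miR-30a 85th in likeness to miR-30c, and miR-30c was 38th and miR-30a 57th in likeness to miR-30d.

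miRNAs known to repress Runx2 or Smad1 in cells of the osteoblast lineage were a list of 15, all of them on the array and 5 of them guide strands of the family. Of the list, 5 had values, namely the 3 members, miR-23a and miR-205, and 5 of 5 were lower in KD, with a median of -4.84. miR-205, also an epithelial miRNA, stood at that median (limma adjusted p = 0.0018). The 10 Null members included miR-204, miR-211, miR-135a and miR-338-3p. All 5 being called is no result about the list, with 84.2% of all assays called.

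Marker miRNAs of blood, stromal and epithelial cell types were largely lower in KD beside the miR-30 members. For each list, the linear levels of its measured members were summed per sample. The range of this sum over the samples of a group is given in log2 units relative to U6. No list holds any of the 7 assays without a fixed KD mean. The KD sums thus follow the number of measured members and their scatter, and are no level of a cell type. The counts called lower, like those of the family, are to be read against the 84.2% of all assays and say nothing particular about a cell type. The assays miR-24 (myeloid list) and miR-199a-3p (stromal list) hold the same Ct in 6 of 6 samples, so 1 set of readings is counted in both lists. Myeloid and macrophage miRNAs had 7 of 11 measured and 7 of 7 lower (2.05 to 3.63 in KD, 8.07 to 8.90 in Intact), with miR-223 at the median of -5.50 and miR-142-3p, miR-146a, miR-155 and miR-27a Null. Erythroid miRNAs had 3 of 3 measured and 2 lower (0.53 to 2.33 in KD, 3.90 to 4.10 in Intact), with miR-451 at the median of -2.14. Lymphoid miRNAs had 4 of 6 measured and 4 lower (1.63 to 2.38 in KD, 5.70 to 6.48 in Intact), with a median of -4.35, miR-181d nearest to it at -4.44, and miR-181b and miR-181c Null. Epithelial miRNAs had 5 of 9 measured and 5 lower (2.00 to 2.61 in KD, 10.19 to 10.84 in Intact), with miR-203 at the median of -6.73 and miR-200b, miR-141, miR-429 and miR-182 Null. Stromal and osteoblast-lineage miRNAs had 5 of 11 measured and 5 lower (1.95 to 2.48 in KD, 7.93 to 8.88 in Intact), with miR-100 at the median of -5.13 and miR-199a-5p, miR-199b, miR-125b-5p, miR-218, miR-204 and miR-211 Null. U6 of plate 1 read 30.3 ± 0.91 cycles in KD and 29.7 ± 0.55 cycles in Intact samples (SD, n = 3 each). The part of these cell types or of U6 in the miR-30 differences was not tested. Fewer cells of a type, less RNA per cell and the step that fixed the KD means cannot be told apart here.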

How the data were processed

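Arrays of SYBR Green PCR assays were run after QuantiMir reverse transcription and with 40 cycles on a ViiA7 instrument, per the labels' protocols. The authors deposited raw Ct values, log2-scale delta Ct relative to U6, and fold ratios of Intact over KD, per the file headers. The sources used here give no rule for Null, no Ct threshold and no amplification efficiency. Deposited Ct minus delta Ct equals the Ct of 1 well per plate to within 0.0011 cycles. IDs of 48 wells that had become numbers were restored.

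Assays with a Ct under 35 in at least 3 samples, which were all 95 measured ones, were tested with limma 3.58.1 in R 4.3.3 (lmFit, eBayes without trend, two-sided, Benjamini-Hochberg over 95, threshold 0.05). Member ratios were compared with exact permutation tests (scipy 1.17.1). The limma step was checked on simulated data with independent normal values, which does not cover the fixed KD means. Every miR-30 or same-seed assay, the 3 nearest in pattern to each member, and the list member nearest each list's median were to be named. miR-293 and the example names of Null assays were chosen after values were seen. The members and lists were chosen with earlier results of these data known. There is no read depth in PCR data, and precision is limited by 3 samples per group.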

Additional observations from a re-analysis of the deposited data

How the results depend on the processing

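Relative to U6, the calls and directions of miR-30a, miR-30c and miR-30d were the same with each sample left out. The same held with U6 of plate 1 for every assay, a Ct limit of 32 or none, an intensity trend and the replicate block. These latter settings cannot change a member's difference, only its SE and p. The members are on plate 1, a Ct limit only drops other assays, and each replicate number occurs in both groups. None of these settings, nor leaving out a sample, tests the fixed KD means. Centred on the mean Ct of the measured miRNAs, 38 assays passed in place of 80, and the differences were -1.87 for miR-30a, 1.06 for miR-30c and 0.12 for miR-30d. After quantile normalization 12 assays passed, with differences of -1.99, 0.79 and -0.10. Both settings subtract the change common to most assays, which includes the fixed KD means. Leaving out 1 sample gave counts of 75 to 81 assays, differences of -7.95 to -5.29 for miR-30a, -3.77 to -3.14 for miR-30c and -5.23 to -3.89 for miR-30d, and member ratios of -4.64 to -2.04 (miR-30a over miR-30c), -2.79 to -0.60 (miR-30a over miR-30d) and -2.05 to -0.15 (miR-30d over miR-30c). The ratio of linear means, added after seeing the data, gave -4.89, -3.45 and -4.16 for the 3 members. The labels give both groups the same replicate numbers. Deviations of same-numbered samples correlated at 0.025, 0.10 and 0.081 over the 95 assays, and 5 of 6 samples correlated best with their own number, a hint from the data and not from the design. With the replicate block 82 assays passed, and the differences of the members and of their ratios had the same size, which a balanced block fixes in advance. For the ratios, 3 pairs cannot give an exact p below 0.25.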
